A study of Mus musculus with 1012 samples.

Results

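The genes examined were 6 inhibitors of Toll-like receptor (TLR) signalling and of cytokine mRNA, chosen by name from the 30452 features of the count table: Tnfaip3, Tnip1, Irak3, Zc3h12a, Zfp36 and Zfp36l1. Their values were followed in 1012 mouse single-cell libraries, of which 296 were Live-seq, 554 were scRNA-seq and 162 came from cells collected after a Live-seq extraction or from non-extracted controls. Live-seq reads cytoplasm drawn from a living cell with a hollow cantilever, and scRNA-seq here is Smart-seq2 on whole, sorted cells. RAW cells are the RAW264.7 mouse macrophage line, almost all of them from RAW-G9, 1 clone in which the promoter of Tnf drives mCherry and Rela is fused to GFP. LPS, the endotoxin of Gram-negative bacteria that TLR4 recognizes, was added to RAW_LPS cells 4 to 5 h before sampling in Live-seq, and RAW_Mock cells received none. IBA is an immortalized line of brown preadipocytes, and ASPCs are primary stromal and progenitor cells from the subcutaneous fat of female C57BL/6J mice aged 7 to 10 weeks, taken before (ASPC_Pre) or 2 days after (ASPC_Post) the start of an adipogenic cocktail of dexamethasone, IBMX, insulin and rosiglitazone.

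When LPS engages TLR4 on a macrophage, adaptor and kinase complexes build ubiquitin chains that activate NF-kB and MAP kinases, and short-lived mRNAs such as Tnf are made. The response is limited at several steps. Tnfaip3 encodes A20, a ubiquitin-editing enzyme, Tnip1 encodes ABIN-1, an adaptor that binds A20 and ubiquitin chains, and Irak3 encodes IRAK-M, a kinase-like protein that holds back IRAK signalling. Zc3h12a encodes Regnase-1, an endoribonuclease that cleaves cytokine mRNAs, whereas Zfp36 (tristetraprolin) and its paralogue Zfp36l1 encode zinc finger proteins that bind AU-rich elements in mRNA tails and recruit the deadenylation machinery.

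In whole RAW cells, Tnip1, Zc3h12a and Irak3 were higher after LPS, Tnfaip3 was higher in each of 3 batches without passing the threshold, and Zfp36 and Zfp36l1 did not pass it. The promoters that held a motif of an LPS-activated or serum-activated factor are shown here, so that the members can be read against their LPS responses. All 6 members matched an entry of the RefSeq promoter table (GRCm38.p6), with 8 windows among them, each of which holds 250 bases before the annotated start and 50 after it, and all lie on the minus strand. Each window was searched on both strands for the kappa-B motif bound by NF-kB, for the AP-1 motif TGANTCA and for the CArG box bound by serum response factor. The 250 bases before the start are printed, 5′ to 3′, with matches in capitals. The Tnfaip3 stretch is chr10:19015411-19015660, that of Tnip1 is chr11:54962941-54963190, that of Zfp36 is chr7:28379229-28379478 and that of Zfp36l1 is chr12:80113014-80113263. In the GENCODE annotation the Zfp36 stretch lies inside an exon of a longer form of the gene, and that of Tnfaip3 overlaps the first exon of 1 of its transcripts.
Tnfaip3: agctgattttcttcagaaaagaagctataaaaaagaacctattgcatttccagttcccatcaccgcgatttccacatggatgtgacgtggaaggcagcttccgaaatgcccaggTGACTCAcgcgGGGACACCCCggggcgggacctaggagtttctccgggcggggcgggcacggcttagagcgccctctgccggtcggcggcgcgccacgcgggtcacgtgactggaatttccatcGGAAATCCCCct
Tnip1: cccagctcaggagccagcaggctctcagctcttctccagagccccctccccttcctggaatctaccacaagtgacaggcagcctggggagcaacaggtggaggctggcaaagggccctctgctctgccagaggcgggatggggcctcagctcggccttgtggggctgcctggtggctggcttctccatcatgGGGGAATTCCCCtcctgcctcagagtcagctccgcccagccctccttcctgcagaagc
Zfp36: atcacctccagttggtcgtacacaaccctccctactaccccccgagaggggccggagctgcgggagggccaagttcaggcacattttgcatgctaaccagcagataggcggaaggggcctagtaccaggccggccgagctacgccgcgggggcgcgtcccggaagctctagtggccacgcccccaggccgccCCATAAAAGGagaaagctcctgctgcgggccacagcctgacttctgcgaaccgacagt
Zfp36l1: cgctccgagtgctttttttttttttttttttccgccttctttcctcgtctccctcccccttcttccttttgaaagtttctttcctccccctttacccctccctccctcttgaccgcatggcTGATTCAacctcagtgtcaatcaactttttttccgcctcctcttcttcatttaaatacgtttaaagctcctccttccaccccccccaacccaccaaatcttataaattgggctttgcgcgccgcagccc

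Counted from the start, the Tnfaip3 promoter held kappa-B matches at -125 to -116 and at -12 to -3 and an AP-1 match at -136 to -130. The Tnip1 promoter held 3 kappa-B matches that overlap each other within GGGGAATTCCCC, from -58 to -47. Zfp36 held a CArG box, CCATAAAAGG, at -58 to -49, and Zfp36l1 an AP-1 match at -129 to -123. None of the 3 motifs was found in the window of Zc3h12a, in either window of Irak3 or in a second window of Tnfaip3. Of all 32817 promoter windows, 8.46% held the kappa-B motif, 7.81% the AP-1 motif and 1.63% the CArG box. A match is a string of letters in this window and not a measured binding site.

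The nonamer TTATTTATT, the core of the AU-rich element that the Zfp36 family binds, occurs in the mRNA tails of some members too, as it does in that of Tnf. This search was added after the first results were known. Stretches of 30 bases from the 3′UTRs of GENCODE transcripts on GRCm38 are printed with the nonamer in capitals.
Tnf: ttaTTATTTATTATTTATTTATTATTTATT
Zfp36: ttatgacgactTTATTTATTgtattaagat
Zfp36l1: aaactgttggaTTATTTATTttagaaattc

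Tnf held 5 nonamers in its 3′UTR, 4 of them overlapping in the stretch shown (bases 435 to 464 of the 3′UTR). Zfp36 and Zfp36l1 held 1 each, and Tnip1, Irak3 and Zc3h12a held 0. The nonamer was in 5 of 15 genes in a list of cytokine and other unstable mRNAs and 7.66% of 21020 protein-coding genes with an annotated 3′UTR. The genes lie at chr10:19000910-19015657 (Tnfaip3), chr11:54910785-54962917 (Tnip1), chr10:120141648-120202130 (Irak3), chr4:125118423-125127840 (Zc3h12a), chr7:28376784-28380253 (Zfp36) and chr12:80107754-80113013 (Zfp36l1). Counting ignored strand and, in the union mode that the study's methods give, a read over exons of a pair of genes is assigned to neither. For Zfp36l1, 1672 exon bases, 55.9% of its exon length, are shared with the antisense gene Gm26669, which had 29 counts over all libraries. Its counts can miss the reads of these bases, so that its level per kb and its place below Zfp36 are uncertain. The other members share at most 5.22% of their exon length with a gene on the opposite strand, the most being that of Irak3 with Tmbim4.

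Batches named in the labels served as replicates. Counts were summed over the cells of a state in a batch, and a level is given as CPM of such a sum (its counts relative to all kept counts of the sum), so that a sum cannot tell fewer positive cells from less mRNA per cell. Total counts per library ran from 64547 to 1603790 in Live-seq and from 41030 to 2671609 in scRNA-seq, and the median number of genes detected was 4035 and 8531. The 9 macrophage markers summed to 2388 to 12270 CPM in the sums of RAW-G9 cells by either technique, where the 8 mesenchymal markers reached at most 5.63 CPM. In IBA and ASPC sums the mesenchymal markers reached 2611 to 20060 CPM and the macrophage markers 0.309 to 79.1 CPM, except in the scRNA-seq IBA sum of batch 9_1, where all 9 had counts and summed to 564.4 CPM. Live-seq batch 6 was thin, with 8 RAW_Mock and 4 RAW_LPS cells, and 83.6% of the summed per-cell Tnf CPM of its RAW_Mock cells lay in 1 cell.

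Whether LPS raised these inhibitors was asked first in whole cells. Of the inhibitors of signalling, Tnip1 stood at 75.3, 63.6 and 204.1 CPM in the RAW_Mock sums of batches 8_8, 9_1 and scRNA and at 474.4, 297.9 and 803.9 CPM in the RAW_LPS sums. Every RAW_LPS sum was above every RAW_Mock sum, and within a batch LPS raised Tnip1 6.30-, 4.69- and 3.94-fold. The log2 fold change was 2.43 ± 0.26 (approximate SE, n = 3 batches), and Tnip1 was called (edgeR quasi-likelihood test, Benjamini-Hochberg adjusted p = 0.00772). For edgeR values, this SE is the size of the log2 fold change divided by the square root of the F statistic of the test. In scRNA-seq the spread behind it was estimated over all 12 sums, those of IBA and ASPC included. A gene was called at an adjusted p under 0.05 with an absolute log2 fold change above 1.

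Tnfaip3 stood at 14.8, 9.63 and 32.95 CPM in RAW_Mock and at 76.5, 132.8 and 231.4 CPM in RAW_LPS. The groups did not overlap, and the ratio within a batch was 5.18, 13.8 and 7.02. Its log2 fold change of 3.22 ± 0.84 was larger than that of Tnip1 but the sums scattered more, and it was not called (adjusted p = 0.112). It did pass with the newer edgeR fit, DESeq2, limma, RAW sums alone and thinned cells, with adjusted p from 0.00204 to 0.0418 in those 5 settings. They called 452 to 711 genes, against 173 in the fit reported.

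Irak3 was almost silent in resting RAW cells. Its RAW_Mock sums held 0, 4 and 0 counts in batches 8_8, 9_1 and scRNA, and the RAW_LPS sums reached 2.66, 2.71 and 3.83 CPM. The sums did not overlap, but the levels after LPS were still the lowest of the 6 members, and all 11 counts of batch 8_8 came from 1 of 15 cells. Over all cells, 203 counts in RAW_LPS against 4 in RAW_Mock gave a ratio of 51.9, with the lower end of its 95% interval at 20, which covers counting error only, since no molecular identifiers were used. The fitted log2 fold change was 6.20 ± 1.17 (adjusted p = 0.0402), a value that depends on the prior count of the fit because the resting level is so close to 0. The call was lost with RAW sums alone (adjusted p = 0.0626), with thinned cells (0.1004) and with limma on mean CPM (0.145).

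Among the mRNA decay factors, Zc3h12a moved with the signalling inhibitors. It stood at 7.85, 1.25 and 12.1 CPM in RAW_Mock and at 36.3, 16.9 and 116.7 CPM in RAW_LPS. Again the groups did not overlap, with ratios of 4.62, 13.5 and 9.63 within batches, and the log2 fold change was 3.21 ± 0.44 (edgeR adjusted p = 0.0149).

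Neither gene of the Zfp36 family was called. Zfp36 stood at 11.3, 9.31 and 58.96 CPM in RAW_Mock and at 20.6, 17.4 and 45.6 CPM in RAW_LPS. The groups overlapped, with LPS above Mock in batches 8_8 and 9_1 and below it in batch scRNA, where the level was highest in either state. The log2 fold change was 0.51 ± 0.61 (adjusted p = 0.808). Zfp36l1 stood at 18.5, 11.98 and 29.6 CPM before and at 12.6, 8.80 and 14.5 CPM after LPS. It was lower with LPS in each batch, at 0.681, 0.734 and 0.488 of the resting level, though the groups overlapped and the log2 fold change of -0.55 ± 0.42 did not pass (adjusted p = 0.643).

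**Figure D1:**
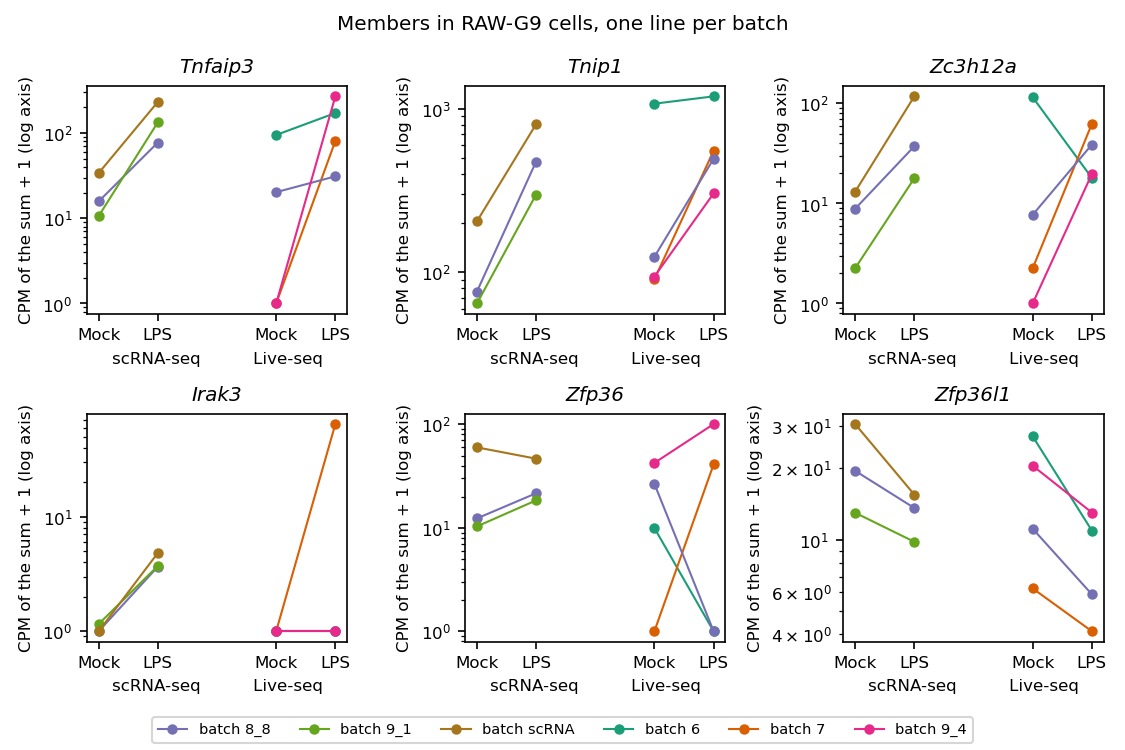
Level of each member in RAW-G9 cells before (Mock) and after LPS, as CPM of the sum plus 1 on a log axis, with scRNA-seq at the left and Live-seq at the right of each panel. Each line joins the sums of 1 batch. For Tnfaip3, Tnip1, Zc3h12a and Irak3 the LPS point is above the Mock point in all 3 scRNA-seq batches. In Live-seq the batches change in opposite directions for Zfp36 and Zc3h12a, and Irak3 leaves 0 in batch 7 alone.

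Thus 3 of 6 members were called higher and 0 lower, where 0.951% of the 13560 genes tested were called higher. RAW_LPS sums lay above RAW_Mock sums without overlap for 4 of 6 members and 6.05% of all genes. The median log2 fold change was 2.82 over the members and 0.00 over all genes. All 3 calls were lost when any 1 of the batches 8_8, 9_1 and scRNA was left out, with adjusted p of 0.0502 to 0.0896 for Tnip1, 0.0748 to 0.264 for Zc3h12a and 0.1249 to 0.304 for Irak3, and when batch was left out of the model (0 calls).

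Tnf mRNA, the best known target of the decay factors, served as a scale for the response. It went from 79.9, 223.9 and 335.5 CPM to 1471, 2502 and 1783 CPM in batches 8_8, 9_1 and scRNA, a log2 fold change of 3.41 ± 0.87 that missed the threshold (edgeR adjusted p = 0.105). Per kb of exon, the mean level of Tnf in RAW_LPS sums was 1171 CPM per kb (897.5 to 1527, n = 3). Tnip1, the most abundant member, stood at 148.5 CPM per kb, followed by Tnfaip3 (20.3), Zc3h12a (19.7), Zfp36 (8.03), Zfp36l1 (4.00) and Irak3 (0.835). Exon length pools all annotated transcripts, and for Zfp36 it is 1 block of 3470 bases, the whole span of the gene. The level per kb of Zfp36 can therefore be too low for its shorter form, and its place is uncertain. In RAW_Mock sums the order was different, with Tnip1 at 32.3 CPM per kb, Zfp36 at 7.65, Zfp36l1 at 6.70, Tnfaip3 at 2.65, Zc3h12a at 2.46 and Irak3 at 0.0142. Much of this order lay within the spread of the sums. In RAW_LPS, the ranges of Tnfaip3 (10.6 to 32.0), Zc3h12a (5.85 to 40.5) and Zfp36 (5.02 to 13.1) overlapped, and Tnip1 lay above and Irak3 below all others. In RAW_Mock, Zfp36 (2.68 to 16.99), Zfp36l1 (4.01 to 9.91), Tnfaip3 (1.33 to 4.56) and Zc3h12a (0.434 to 4.21) formed a chain of overlapping ranges between Tnip1 and Irak3.

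Other inhibitors and decay factors were read from lists that were set up with earlier results of these data known. Of 16 other inhibitors of TLR and NF-kB signalling, 4 were called higher and 0 lower in scRNA-seq. They were the IkB genes Nfkbia (log2 fold change 2.25 ± 0.37), Nfkbib (1.77 ± 0.31) and Nfkbie (2.82 ± 0.43), whose products hold NF-kB in the cytoplasm, and Rnf11 (2.23 ± 0.27), which encodes a partner of A20, at edgeR adjusted p of 0.0117 to 0.0329. Their median log2 fold change was 0.59. None of 15 other mRNA decay factors tested, among them Zfp36l2, Rc3h1 and the CCR4-NOT subunits, was called, and their median was 0.12. Of 20 genes for the TLR4 receptor and its transducers, Nfkb1, an NF-kB subunit, was called higher (1.73 ± 0.28), with a median of 0.73. Among 12 tested cytokine and other unstable mRNAs, all had a positive log2 fold change (median 3.89), against 50.2% of all genes. A gene could enter the test through its counts in RAW_LPS cells alone, so positive values were favoured in this list. Il10, Il12b and Csf2 of the same list were not tested. Nfkbiz, an NF-kB cofactor whose mRNA Regnase-1 cleaves, was called (3.32 ± 0.58, edgeR adjusted p = 0.0329).

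In Live-seq the same contrast rested on RAW-G9 cells in batches 6, 7, 8_8 and 9_4, with 8, 20, 63 and 12 RAW_Mock and 4, 16, 9 and 10 RAW_LPS biopsies. Tnip1 stood at 1073, 89.8, 123.5 and 93.3 CPM in RAW_Mock and at 1190, 552.8, 493.5 and 302.7 CPM in RAW_LPS in the same order of batches. LPS was above Mock in each batch, and apart from batch 6, which was high in both states, the groups did not overlap. Tnfaip3 stood at 94, 0, 19.3 and 0 CPM in RAW_Mock and at 170.9, 79.8, 30.1 and 268.8 CPM in RAW_LPS, again higher in each batch. Its RAW_Mock counts in batch 6 came from 1 cell, as did its RAW_LPS counts in batch 8_8, so that both low and high values of Tnfaip3 rest on few biopsies.

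Zc3h12a stood at 114.5, 1.25, 6.69 and 0 CPM in RAW_Mock and at 17.02, 61.3, 37.8 and 18.6 CPM in RAW_LPS. It was higher after LPS in batches 7, 8_8 and 9_4 and lower in batch 6. Zfp36 stood at 8.95, 0, 25.6 and 41.4 CPM and then at 0, 40.0, 0 and 99.6 CPM, with no common direction. Zfp36l1 stood at 26.2, 5.24, 10.1 and 19.5 CPM in RAW_Mock and at 9.93, 3.12, 4.89 and 12.01 CPM in RAW_LPS. It was lower after LPS in each of the 4 batches, at 0.379 to 0.617 of the resting level. These RAW_LPS sums of Zfp36l1 held 14, 31, 7 and 58 counts, from 1 of 4, 3 of 16, 2 of 9 and 5 of 10 biopsies. Irak3 had 0 counts in every RAW_Mock biopsy and in 38 of 39 RAW_LPS biopsies. The remaining biopsy, in batch 7, held 630 counts, so that the group level of at least 383-fold above a floor of 3 counts over the RAW_Mock group is the value of 1 cell.

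By edgeR's quasi-likelihood test, 0 of 6 members and 0% of the 13448 genes tested were called in Live-seq. The lowest adjusted p of any gene was 0.270, and 535 genes had an unadjusted p under 0.05. DESeq2 called 665 genes, Tnfaip3 and Irak3 among them, limma on mean CPM called 1 gene, and the newer edgeR fit called 0. The log2 fold changes were 1.62 ± 0.97 for Tnip1, 8.07 ± 4.32 for Tnfaip3, 7.32 ± 3.26 for Irak3, 3.37 ± 2.87 for Zc3h12a, 0.23 ± 2.99 for Zfp36 and -0.93 ± 1.18 for Zfp36l1, all at an adjusted p of 1. The median over all genes was -0.48, against 2.495 over the members. Standard errors of this size leave changes like those of the whole cells undetected.

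Over both techniques, LPS sums were above the Mock sums of the same batch in all 7 comparisons for Tnfaip3 and Tnip1, which 1.67% of genes showed. They were below them in all 7 for Zfp36l1, which 4.03% of genes showed, but its Live-seq RAW_LPS sums rest on few biopsies. The difference between the LPS responses of the techniques was tested as an interaction. None of 6 members was called (0% of 11552 genes), and 548 genes had an unadjusted p under 0.05, while DESeq2 called 63 genes and 0 members. For Tnip1 the Live-seq response was lower by 0.72 ± 0.75 on the log2 scale (edgeR adjusted p = 1). In batch 8_8, the 1 batch with both techniques, Live-seq levels were compared with scRNA-seq over RAW_Mock, RAW_LPS, IBA and ASPC_Pre. Again 0 of 6 members were called (0% of 12997 genes, with 390 at an unadjusted p under 0.05), and the log2 difference for Tnip1 was -0.93 ± 1.007 (adjusted p = 0.953).

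The share of cells with a count shows how the levels were spread over cells. In scRNA-seq, Tnfaip3 had a count in 28.03% of RAW_Mock cells (16, 46 and 95 in batches 8_8, 9_1 and scRNA) and 87.9% of RAW_LPS cells (15, 46 and 88), and Zc3h12a in 31.8% and 89.3%. When each cell was thinned to 50000 counts, with shallower cells left out, the shares became 19.2% and 81.9% for Tnfaip3 and 19.2% and 73.2% for Zc3h12a. Both genes thus went from a minority to a majority of whole cells. Tnip1 was in 93.6% of cells before and 100% after LPS (86.5% and 98.7% thinned). The share for Zfp36 was 70.1% and 73.8% (49.4% and 50.3% thinned). For Zfp36l1 it was 90.5% and 73.8% (56.4% and 43.6% thinned). Irak3 was in 2 RAW_Mock cells, 1.27%, and 15 RAW_LPS cells, 10.1% (5.75% to 16.1%, exact 95% interval), so that its level after LPS came from a minority of cells. This interval pools the cells of all batches and leaves out the spread between batches. By batch (8_8, 9_1 and scRNA) the RAW_LPS share of Irak3 was 6.67%, 8.70% and 11.4%.

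In Live-seq, Tnip1 was in 46.6% of RAW_Mock and 76.9% of RAW_LPS biopsies (37.6% and 73.7% thinned), Tnfaip3 in 10.7% and 35.9% (7.92% and 34.2%) and Zc3h12a in 15.5% and 48.7% (7.92% and 31.6%). Zfp36 was in 17.5% and 33.3% (12.9% and 21.05%), and Zfp36l1 in 33.01% and 28.2% (19.8% and 18.4%). Shares were lower than in whole cells for each member. Over all batches together, Tnip1, Tnfaip3 and Zc3h12a kept the same order of Mock and LPS. Within batch 8_8, Tnfaip3 was in 15.9% of 63 RAW_Mock and 11.1% of 9 RAW_LPS biopsies, and Zc3h12a in 20.6% and 22.2%. The median number of genes detected there was 3492 and 1943. In batches 6, 7 and 9_4 both shares were higher in RAW_LPS. On average a RAW_LPS cell had counts for 4.35 of the 6 members in scRNA-seq and 2.26 in Live-seq, against 3.15 and 1.23 in RAW_Mock (thinned, 3.54, 1.82, 2.31 and 0.861). None of the 6 had a count in 34 RAW_Mock biopsies, 33.01% of them.

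**Figure D2:**
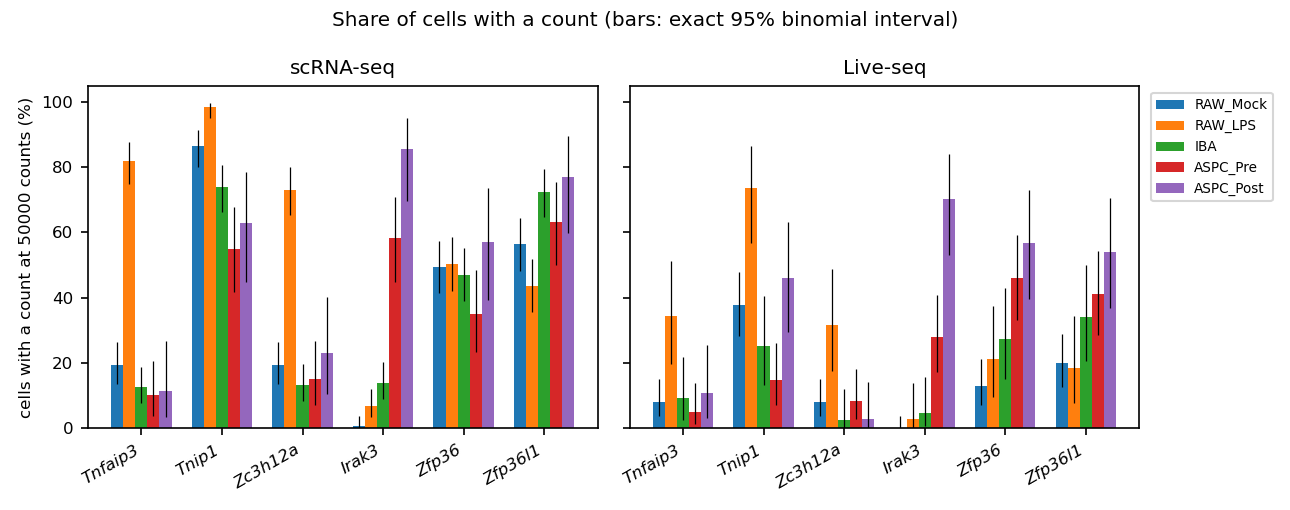
Percent of cells with at least 1 count of each member after thinning to 50000 counts, by state, with exact 95% binomial intervals, in scRNA-seq (left) and Live-seq (right). The intervals pool the cells of all batches and leave out the spread between batches. For Tnfaip3 and Zc3h12a the RAW_LPS bar stands above all other states, and for Irak3 the ASPC bars do.

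In 4 RAW cells a biopsy was taken before LPS and again after it. In 1 of them (202.3 and 1024 CPM of Tnip1) the labels give both biopsies as a first extraction, and they were joined by their shared pair label alone. Tnip1 was higher in the second biopsy in 4 of 4 cells, going from 2.68 to 981.1, from 123.5 to 221.8, from 202.3 to 1024 and from 0 to 1018 CPM. Tnfaip3 had no count in the first biopsies and stood at 216.3 and 374.1 CPM in the second biopsies of 2 of 4 cells, and Zc3h12a likewise went from 0 to 118.7 and 79.5 CPM in 2 of 4. Just 1 of the 4 cells gained both, the cell in which Tnip1 went from 0 to 1018 CPM. Its first biopsy had 1150 genes and 122634 kept counts, and its second 4409 genes and 729808 kept counts. Gains in that cell and deeper sampling cannot be told apart. Irak3 was at 0 in all 8 biopsies, Zfp36 was higher in 1 cell and lower in 1, Zfp36l1 was higher in 2 and lower in 1, and Tnf was higher in 4 of 4.

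**Figure D3:**
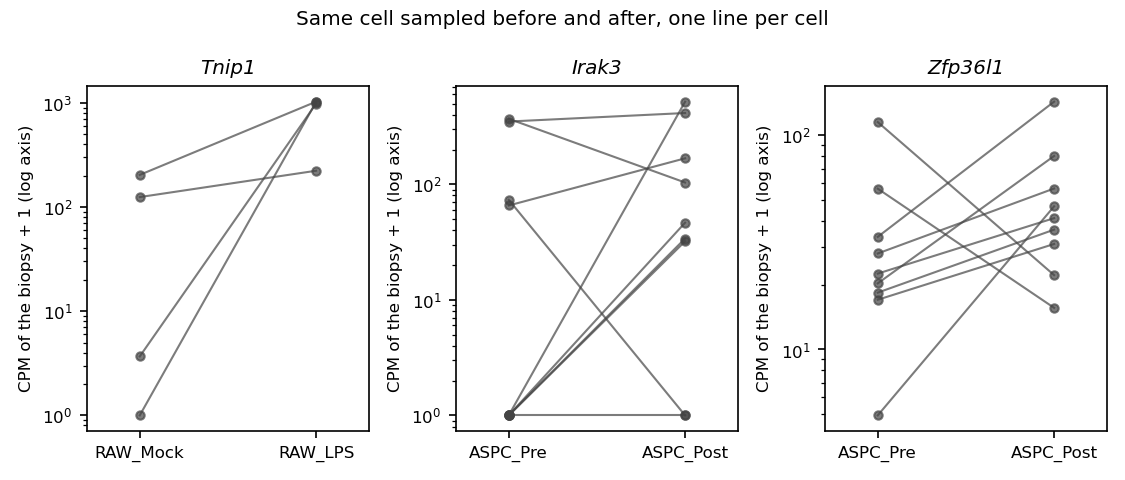
CPM plus 1 (log axis) of repeated biopsies of the same cell, for Tnip1 in 4 RAW cells before and after LPS and for Irak3 and Zfp36l1 in 9 ASPCs before and after induction. Each line is 1 cell. All 4 Tnip1 lines end higher, as do 6 of 9 for Irak3 and 7 of 9 for Zfp36l1.

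Outside the LPS response, the question was which brakes resting macrophages and mesenchymal cells carry. Tnip1 was higher in resting RAW cells than in IBA and ASPC_Pre cells. Its scRNA-seq sums of 63.6 to 204.1 CPM in RAW_Mock (n = 3) lay above those of 34.3 to 47.6 CPM in IBA (n = 3) and of 24.2 and 37.0 CPM in ASPC_Pre (n = 2), without overlap. The log2 difference was 1.22 ± 0.23 (edgeR adjusted p = 0.00238). It was called higher, as were 14.5% of genes, and without batch scRNA it was 0.97 and fell under the fold threshold.

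Irak3 went the other way. Its sums were 22.6 and 34.2 CPM in ASPC_Pre, 0.834, 16.1 and 3.26 CPM in IBA (batches 8_8, 9_1 and scRNA) and 0 to 0.157 CPM in RAW_Mock. The RAW_Mock sums were below all others, and the fitted log2 difference was -7.95 ± 1.15 (edgeR adjusted p = 0.000575), called lower as were 23.7% of genes. The IBA sum of batch 9_1, the highest of the 3, is the sum in which macrophage markers stood at 564.4 CPM. The part of macrophage markers in the Irak3 level of that sum was not tested.

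The other 4 members were not called between resting macrophages and mesenchymal cells in scRNA-seq. The log2 difference, RAW_Mock minus the mean of IBA and ASPC_Pre, was 0.90 for Tnfaip3 (adjusted p = 0.363), -0.67 for Zfp36 (0.401), -0.88 for Zfp36l1 (0.0990) and -0.33 for Zc3h12a (0.522). Without batch 8_8, Tnfaip3 reached 1.40 (edgeR adjusted p = 0.0175), where 5324 of 13560 genes were called. In Live-seq, 0 of 6 members were called, against 3.09% of genes. DESeq2 called Irak3 there, with 1854 of 13448 genes called. Limma on mean CPM called Tnip1, with 1599 genes called, and edgeR gave Tnip1 as 2.66 ± 0.99 at an adjusted p of 0.210.

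Between IBA and ASPC_Pre, 0 of 6 members were called by edgeR in scRNA-seq, against 10.9% of genes, and 0 in Live-seq, against 0.0223%. In scRNA-seq, Irak3 was lower in IBA by 2.76 ± 0.90 on the log2 scale (adjusted p = 0.0775) and Zc3h12a by 1.61 ± 0.47 (adjusted p = 0.0550). The newer edgeR fit and DESeq2 called both, and limma on mean CPM called Irak3. Of 13560 genes tested, these 3 tools called 2658, 2043 and 2882, against 1483 in the fit reported.

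Across states in scRNA-seq, Tnfaip3, Tnip1 and Zc3h12a averaged highest in RAW_LPS, whereas Irak3 and Zfp36l1 did not. Tnfaip3 averaged 146.9 ± 78.4 CPM (SD, n = 3) in RAW_LPS, 19.1 ± 12.3 in RAW_Mock, 9.75 ± 11.6 in IBA and 6.63 ± 2.49 (n = 2) in ASPC_Pre, with 10.98 in the 1 ASPC_Post sum. Neighbouring states after the first overlapped within their spread. Tnip1 averaged 525.4 ± 256.8 in RAW_LPS, 114.3 ± 78.0 in RAW_Mock, 39.8 ± 6.97 in IBA and 30.6 ± 9.02 in ASPC_Pre, with 21.95 in ASPC_Post, and IBA and ASPC_Pre did not differ beyond their spread. Zc3h12a averaged 56.6 ± 52.9 in RAW_LPS and 4.41 to 8.89 CPM elsewhere, where the spreads overlapped. Zfp36 had means of 22.2 to 27.9 CPM in the 5 states. Zfp36l1 was highest in IBA (38.5 ± 15.3) and ASPC_Post (35.4), followed by ASPC_Pre (23.7 ± 4.65), RAW_Mock (20.03 ± 8.93) and RAW_LPS (11.95 ± 2.89), with overlap between neighbours, except that the ASPC_Post sum lay above both ASPC_Pre sums.

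**Figure D4:**
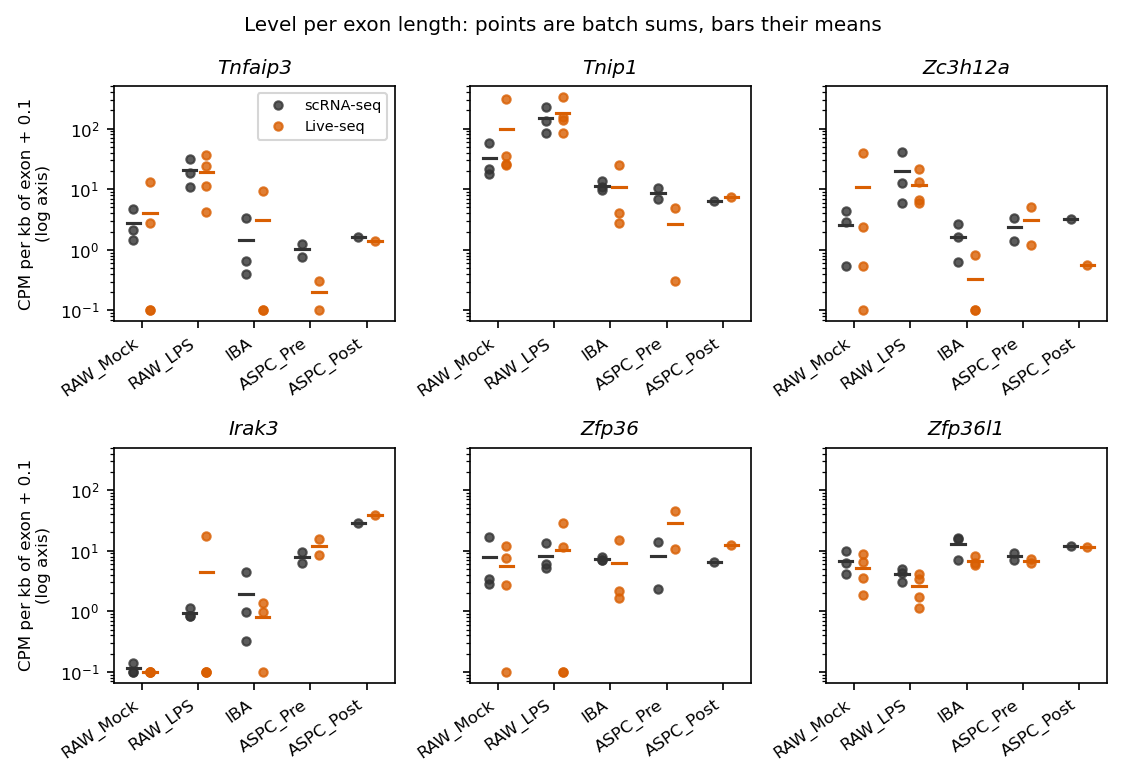
CPM per kb of exon plus 0.1 (log axis) of each member in 5 states, with a point for each batch sum and a bar at the mean, in scRNA-seq (grey) and Live-seq (orange). Tnip1 is the most abundant member in RAW cells, Irak3 is highest in ASPC_Post at 28.5 and 39.1 CPM per kb, and the states overlap for Zfp36.

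After adipogenic induction Irak3 was the member with the highest level per kb of exon, at 28.5 CPM per kb in scRNA-seq and 39.1 in Live-seq. Within scRNA-seq batch 9_1 it was at 34.2 CPM in ASPC_Pre and 104.7 CPM in ASPC_Post, and within Live-seq batch 9_4 at 31.2 and 143.6 CPM. The ratios of 3.06 and 4.61 have the same direction, but each technique had 1 batch with both states, so there was no test. Within the same batches the share of cells with a count went from 75% to 88.6% in scRNA-seq and from 46.5% to 72.97% in Live-seq. Zfp36l1 had ratios of 1.31 and 1.60, and Tnfaip3 of 1.31 and 6.53. The Live-seq ratio of Tnfaip3 rests on 4 of 43 ASPC_Pre and 6 of 37 ASPC_Post biopsies. In these groups 64.2% and 52.5% of its per-cell CPM lay in 1 cell. For Tnip1 (0.907 and 1.54) and Zc3h12a (2.40 and 0.41) the techniques differed in direction, and Zfp36 was at 2.85 and 1.18. In 9 ASPCs with a biopsy at both times by the pair labels, which is more pairs than the study's text counts for reasons not known here, Irak3 was higher in the second in 6 and lower in 2, and Zfp36l1 was higher in 7 and lower in 2.

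IBA cells collected 1 h and 4 h after a Live-seq extraction were set beside cells without extraction (0 h), all from 1 batch and therefore without a test. Tnfaip3 stood at 17.95 CPM in 70 cells at 0 h, 50.5 CPM in 49 cells at 1 h and 22.9 CPM in 43 cells at 4 h, with 1 h at 2.81 times the 0 h level (2.52 to 3.15, counting error). The share of cells with a Tnfaip3 count was 38.6%, 63.3% and 34.9% (26.5%, 51.02% and 27.9% thinned), and the top cell at 1 h held 16.5% of the per-cell CPM. Tnfaip3 was thus higher at 1 h than at either other time, in level and in share.

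The sums of Zfp36l1 stood at 34.4, 25.8 and 12.4 CPM, and 4 h was at 0.36 of the 0 h level (0.307 to 0.421). The share of cells with a Zfp36l1 count was 80%, 91.8% and 69.8% (57.4%, 57.1% and 34.9% thinned), so that level and share were both lowest at 4 h but the share was not lower at 1 h. The sums of Zc3h12a stood at 3.93, 7.61 and 11.2 CPM, with 42.03% of the per-cell CPM of 4 h in the top cell. Its share of cells was 34.3%, 51.02% and 37.2% (10.3%, 22.4% and 18.6% thinned), highest at 1 h. Zfp36 stood at 10.7, 9.96 and 10.6 CPM, and Tnip1 stood at 34.3, 25.8 and 42.9 CPM. Irak3 was at 1.27, 5.86 and 2.08 CPM, with 58.5% of the per-cell CPM of 1 h in 1 cell. Tnf had 0 counts at all 3 times.

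**Figure D5:**
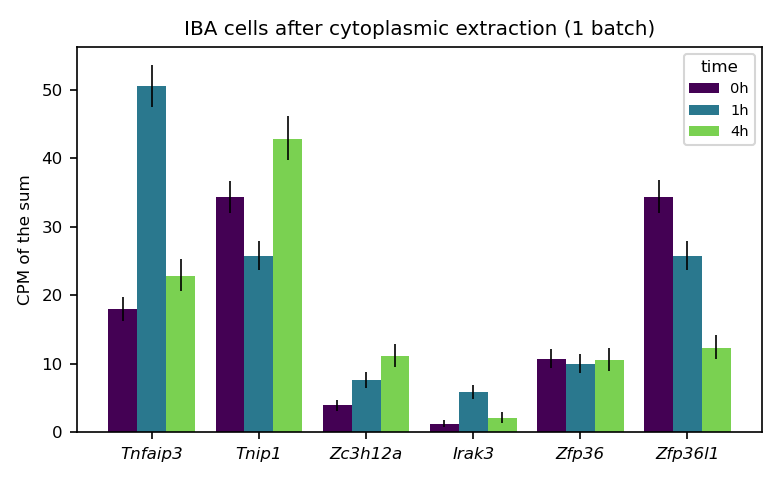
CPM of the sum of each member in IBA cells without extraction (0 h) and 1 h and 4 h after extraction, with exact 95% Poisson intervals that cover counting error only. Tnfaip3 is highest at 1 h (50.5 CPM), and Zfp36l1 is at 34.4 CPM at 0 h and 12.4 CPM at 4 h.

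The genes whose levels over the 12 scRNA-seq sums were most like those of a member were named by Pearson's r of log2(CPM + 1), as a description over sums that share batches. For Tnip1 they were Malt1 (0.972), Bcl2a1a (0.969), which has near-identical copies, and Itgal (0.968). For Tnfaip3 they were Rsbn1 (0.954), Tyk2 (0.948) and Gdpd1 (0.939), for Zc3h12a Appl1 (0.923), Eif4g2 (0.916) and Rab8b (0.901), and for Irak3 Mettl27 (0.959), Mocs1 (0.940) and Rtl8c (0.934). The closest to Zfp36l1 were Fbxl2 (0.919), Crot (0.916) and Tle2 (0.915). Zfp36 had no gene above 0.861 (Srebf2), with B230354K17Rik at 0.860 and Rest at 0.800. Among the members, r was 0.881 between Tnfaip3 and Tnip1, 0.813 between Tnfaip3 and Zc3h12a, 0.814 between Tnip1 and Zc3h12a and -0.714 between Tnfaip3 and Zfp36l1.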

How the data were processed

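Raw counts per gene were used as deposited. Per the labels and the study's methods, the authors demultiplexed with bcl2fastq 2.19.1, mapped read 1 (75 bp) to mm10 (GRCm38) using STAR 2.6.1c, and HTSeq assigned unique alignments to Ensembl 87 genes regardless of strand. The 2 libraries with fewer than 1000 genes detected were kept, and left out as an alternative. Cells were grouped by labels. The 20 negative-control and 91 ribosomal protein genes, a median of 24.1% of Live-seq and 24.7% of scRNA-seq counts, were left out. Each state of a batch with 3 or more cells gave 1 sum of counts (12 in scRNA-seq, 14 in Live-seq), tested with edgeR 4.0.16 in R 4.3.3 (TMM, glmQLFit, glmQLFTest, model of state and batch, Benjamini-Hochberg). A gene was kept if 15% or more of the whole cells of some state held 2 or more counts and it passed filterByExpr (minimum count 2, proportion 0.05). Alternatives used the newer edgeR fit, DESeq2 1.42.0 and limma 3.58.1 on log2(mean CPM + 1). The tests were tested on simulated data. P-values measure the spread between batches or, for the techniques within batch 8_8, between the 4 states of that 1 batch. Batch names pair the sums because the labels give shared batches. RAW_Mock and RAW_LPS sums of 1 batch, after removal of state means, correlated at 0.251, 0.364 and 0.444 in scRNA-seq and in Live-seq at 0.245 (batch 6), 0.0624 (7), 0.000939 (8_8) and 0.118 (9_4). The wild-type RAW sum was outside the fits, since its batch holds no other sum. Named genes were the members, the 3 genes most correlated with each and the called genes of the other lists. The members and lists were chosen with earlier results of these data known. The 3′UTR of Tnfaip3 is not reported here. Figures were drawn with matplotlib 3.10.9.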

Additional observations from a re-analysis of the deposited data

Results flagged for a closer look

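Within groups of 4 Live-seq sums, 11 groups of a member were checked for a sum far from the other 3, and 3 were flagged. The check flags about 1 of 20 groups by chance if values are normally distributed. Sums with zeros and single high biopsies are not, so the 3 flags are not shown to exceed chance. Irak3 in RAW_LPS stood at 63.4 CPM in batch 7 and at 0 in batches 6, 8_8 and 9_4, and all 630 counts were in 1 of 16 biopsies. Tnip1 in RAW_Mock stood at 1073 CPM in batch 6, against 89.8 to 123.5 CPM in the other batches, with 49.8% of the per-cell CPM in 1 of 8 biopsies. Zc3h12a in RAW_Mock stood at 114.5 CPM in the same batch, against 0 to 6.69 CPM, with 55.1% in 1 biopsy. In that batch the macrophage markers summed to 2388 CPM, the lowest of the RAW sums.

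Data outside the comparisons also held counts of the members. In 11 biopsies of wild-type RAW264.7 cells after LPS, Irak3 stood at 93.2 CPM, with counts in 3 of 11 biopsies and 59.1% of the per-cell CPM in 1, while RAW_Mock biopsies of RAW-G9 cells were all at 0 and the RAW_LPS sums of RAW-G9 stood at 0, 63.4, 0 and 0 CPM, from 1 of 39 biopsies. Zfp36 stood at 59.1 CPM there, with counts in 10 of 11 biopsies, against 0 to 41.4 CPM in the 4 RAW_Mock sums and 0 to 99.6 CPM in the 4 RAW_LPS sums of RAW-G9. Zfp36l1 had 1 count in these 11 biopsies. All came from batch 5Reseq, which held no RAW-G9 cell, so that line and batch cannot be told apart, and the 1 untreated wild-type biopsy had no count of any member.

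In IBA cells after extraction, Tnfaip3 at 1 h (50.5 CPM against 17.95 at 0 h) and Zc3h12a at 4 h (11.2 CPM against 3.93, with 42.03% of the per-cell CPM in 1 cell) were flagged. They exceeded both the 0 h cells and every scRNA-seq IBA sum beyond counting error. Irak3 and Zc3h12a at 1 h and Tnfaip3 and Tnip1 at 4 h exceeded the 0 h cells alone by this measure. Zfp36l1 at both times and Tnip1 at 1 h lay below the 0 h cells. All come from 1 batch, and the differences were not tested over replicates.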

How the results depend on the processing

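Of 266 alternative values of the tests printed for members, 225 kept their direction and their side of the threshold, 16 lost a call, 16 gained one and 9 reversed; of 24 shares of cells, 11 moved beyond their interval when thinned. The number of members called after LPS in scRNA-seq, 3, became 0 without the replicate block and 0 to 0 (lowest to highest) without 1 batch. In Live-seq it was 0, and 2 with DESeq2. For RAW_Mock against IBA and ASPC_Pre in scRNA-seq it was 2, and 1 to 3 without 1 batch (3 without 8_8, with Tnfaip3, and 1 without scRNA, with Irak3); in Live-seq it was 0, and 1 with DESeq2 (Irak3), 1 with limma and 1 without the replicate block (both Tnip1). For IBA against ASPC_Pre in scRNA-seq it was 0, and 2 with the newer edgeR fit, 2 with DESeq2, 1 with limma and 0 to 1 without 1 batch (Tnfaip3 without 8_8). The block changed no other member count. Over all genes, scRNA-seq calls after LPS were 173, and 465 with the newer edgeR fit, 711 with DESeq2, 457 with limma, 509 with RAW sums alone, 452 with thinned cells, 35 without the block and 0, 18 and 4 without batches 8_8, 9_1 and scRNA. In Live-seq they were 0, with 665 by DESeq2 and 30 with thinned cells. The cause of these shifts was not tested. Reversals of printed values on the log2 scale were, after LPS in Live-seq, Irak3 at -0.58 without batch 7 (-0.58 to 9.99 over the 4 left-out batches) and Zfp36 at -0.31 with limma, -1.56 with RAW sums alone, -2.05 without batch 7 and -2.32 without 9_4 (-2.32 to 1.89); between RAW_Mock and mesenchymal cells in scRNA-seq, Zfp36 at 0.32 without 8_8 (-1.33 to 0.32) and Zc3h12a at 0.27 without the block and 0.094 without 9_1 (-0.69 to 0.094); and Tnip1 between techniques in 8_8 at 0.13 without the block of states. Of 23 further member tests, none of them called in the fit reported, 16 took the opposite sign under some alternative, such as Tnfaip3 (-2.39 to 1.14) and Zfp36 (-1.56 to 0.77) for IBA against ASPC_Pre in scRNA-seq. The Live-seq median of all genes ranged from -0.79 to 0.00. With RAW sums alone Irak3 could not be fitted in Live-seq. Of 84 Live-seq sums of members, 19 had no biopsy with a count and 21 rested on 1 to 3 biopsies, so that values of 0 and high values of the same gene are not shown to differ.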

Other observations

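Across RAW_LPS cells of 1 scRNA-seq batch, levels of Tnfaip3 and Zc3h12a had Spearman correlations of 0.683 (batch 8_8, 15 cells), 0.665 (9_1, 46 cells) and 0.09 (scRNA, 88 cells), lowest in the batch with most cells. Zc3h12a with Tnf stood at 0.71, 0.262 and 0.142 in the same batches. Over all members, the correlation with Tnf in RAW_LPS cells ran from -0.284 to 0.71, with a median of 0.171. Cells of a batch share depth and handling, and these values carry no p.

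Between resting RAW cells and the mesenchymal cells in scRNA-seq, 6 of 16 other inhibitors of TLR and NF-kB signalling were called higher in RAW and 4 lower, and of 15 other mRNA decay factors 1 was called higher and 1 lower, where 14.5% of all genes were called higher and 23.7% lower.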
